A study of Mus musculus with 9 samples.

Results

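The transcripts of the ubiquitin ligases that mark muscle atrophy and of the Foxo factors that switch them on were followed through the heart RNA of 9 mice. The set was defined by gene symbol, with earlier results of these data known. It holds 10 genes, Fbxo32, Trim63, Trim54, Trim55, Fbxo30, Fbxo31, Fbxo21, Foxo1, Foxo3 and Foxo4, of the 13890 genes in the deposited count table. All 10 were present and all 10 passed the filter on low counts. The mice were NSG males, an immunodeficient strain lacking mature lymphocytes that accepts human tumour cells, and were 8 weeks old at the start. Sham-operated mice given saline (S, animals 2, 3 and 5) were compared with mice labelled as carrying HCT116 cells, a human colorectal cancer line injected into the spleen to seed the liver (T, animals 11, 12 and 15), and with HCT116 hosts that also received weekly ACVR2B/Fc (A + T, animals 20, 21 and 22), with 3 hearts per group taken about 3 weeks after surgery. ACVR2B/Fc joins the ligand-binding domain of an activin receptor to the Fc part of an antibody and captures activins, myostatin and related ligands in the circulation. No library labelled as a sham mouse given ACVR2B/Fc was analysed here.

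In striated muscle, protein is marked for the proteasome by chains of ubiquitin that ligases attach to chosen substrates. Fbxo32 and Trim63 are the classic atrophy ligases, whose transcripts increase in muscle that is starved, denervated or wasted by disease. Foxo factors bind their regulatory DNA, while Akt, acting downstream of insulin and IGF-1, phosphorylates Foxo proteins and holds them in the cytoplasm. Activins and myostatin signal through ACVR2B to Smad2 and Smad3 and dampen Akt, which is why this receptor is studied as a drug target in cachexia.

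Before the results, the identity of the libraries labelled T needs a caution. Over the genes of the study's own list, the fold changes of these libraries vs. S were nearly identical to those for sham mice given ACVR2B/Fc. The sign was the same for almost every gene, and the size hardly differed for the median gene. From the column for tumour hosts they differed widely in size, and fewer genes, though still most, had the same sign. T is therefore used throughout as the name of a label, and directions in T describe those libraries as labelled, whether or not the mice carried a tumour. The comparison of A + T with S takes no mean from them, but the labels of the A + T libraries were not checked against that list. A + T is therefore likewise the name of a label. The libraries held 12392222 to 19732471 counts, of which the ribosomal RNA gene Rn45s took 4.57% to 19.6%, with low and high libraries in every group. Levels are given as CPM, which scales counts to a common library total after TMM normalization. Markers of cardiomyocytes summed to 51700 to 81600 CPM over the 9 libraries, and the 5 of 9 fast skeletal muscle markers in the table summed to at most 12.2 CPM. Airway markers, of which 2 of 5 were in the table, reached 80.5 CPM in 1 library of T (animal 12) and 1280 CPM in 1 of A + T (animal 22), against at most 1.67 CPM in S. Each of the 10 genes was therefore also fitted without these libraries.

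The MuRF genes encode RING-finger ligases that sit on the sarcomere and on microtubules. The promoter of Trim63 (MuRF1), with known binding sites for Foxo factors and for the glucocorticoid receptor, is shown beside those of Trim54 (MuRF3) and Fbxo31, the genes of the set that were called in T both against S and against A + T. Each window runs from 250 bases before to 50 bases after the RefSeq start, read 5′ to 3′ on the gene's strand from RefSeq on GRCm38.p6, and lies at chr4:134314870-134315169 (plus strand) for Trim63, chr5:31116362-31116661 (plus) for Trim54 and chr8:121578757-121579056 (minus) for Fbxo31. Capitals mark matches to the motifs searched.
Trim63: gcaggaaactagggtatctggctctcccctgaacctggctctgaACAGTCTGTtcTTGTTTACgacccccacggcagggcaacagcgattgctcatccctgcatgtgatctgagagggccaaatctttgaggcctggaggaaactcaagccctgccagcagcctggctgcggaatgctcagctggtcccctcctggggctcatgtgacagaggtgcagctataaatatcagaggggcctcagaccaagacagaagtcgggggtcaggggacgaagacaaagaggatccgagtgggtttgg
Trim54: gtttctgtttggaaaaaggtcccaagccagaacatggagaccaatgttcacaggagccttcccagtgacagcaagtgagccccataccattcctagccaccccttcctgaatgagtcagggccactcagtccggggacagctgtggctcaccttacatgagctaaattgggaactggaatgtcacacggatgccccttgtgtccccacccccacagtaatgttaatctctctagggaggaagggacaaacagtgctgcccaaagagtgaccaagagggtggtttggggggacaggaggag
Fbxo31: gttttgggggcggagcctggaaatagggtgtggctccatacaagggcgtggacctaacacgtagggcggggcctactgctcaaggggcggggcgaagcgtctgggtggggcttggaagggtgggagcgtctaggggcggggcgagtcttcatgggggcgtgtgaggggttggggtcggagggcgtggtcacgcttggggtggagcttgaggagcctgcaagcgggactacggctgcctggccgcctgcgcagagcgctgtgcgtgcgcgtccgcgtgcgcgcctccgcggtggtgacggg

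The motifs were the forkhead core GTAAACA, its Foxo form GTAAACAA that contains the core, the core of the glucocorticoid receptor element ACANNNTGT and the Smad palindrome GTCTAGAC, each on both strands. Of the 10 genes, 7 had a window in the table; Fbxo32, Trim55 and Foxo4 did not. The window of Trim63 held the Foxo form on the minus strand, read as TTGTTTAC from base -195, and 2 bases upstream of it the receptor core ACAGTCTGT from base -206. The Foxo form occurred in 1.23% of all 32851 windows, the forkhead core in 3.65%, the receptor core in 6.85% and the Smad palindrome in 0.213%. The other 6 windows held none of these letters. A match describes sequence only.

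Trim63 was higher in every T heart than in any S heart. It encodes MuRF1, which ubiquitinates thick-filament proteins and troponin I, and lies on chromosome 4 of GRCm38 from 134315120 to 134329629. Its level was 172, 192 and 214 CPM in S, 347, 308 and 311 CPM in T, and 245, 272 and 238 CPM in A + T. The 3 groups did not overlap, and A + T lay between the others. In T vs. S it rose by 0.74 on the log2 scale, a 1.67-fold change (SE 0.10, edgeR adjusted P = 0.000915), and the call survived the loss of any animal in 9 of 9 fits. Against S, A + T stood at 0.39 on this scale (SE 0.10, edgeR adjusted P = 0.0414). That call was lost in 5 of the 9 fits, without S animals 2 and 3, T animal 11 or A + T animals 20 and 21 (adjusted P up to 0.142), and when only S and A + T were fitted (adjusted P = 0.0636). Against T it stood at -0.36 (edgeR adjusted P = 0.0641, and 0.0133 with DESeq2).

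Trim54 was higher in T than in S and lay near the S level in A + T. It encodes MuRF3, a microtubule-binding ligase of the Z-disc, and lies on chromosome 5 from 31116712 to 31137630. It measured 226, 216 and 213 CPM in S, 334, 311 and 345 CPM in T, and 223, 237 and 233 CPM in A + T. The T hearts stood clear of the rest, while S and A + T overlapped. The log2 fold change was 0.60 in T vs. S (1.51-fold, SE 0.07, edgeR adjusted P = 0.000609) and -0.51 in A + T vs. T (SE 0.07, edgeR adjusted P = 0.00678). Leaving out each animal in turn kept both calls in 9 of 9 fits. Against S, A + T stood at 0.08, with a 95% interval of -0.08 to 0.25.

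Trim55, the gene of MuRF2, another ligase that binds titin and microtubules, moved least of the MuRF genes. It lies on chromosome 3 from 19644474 to 19692421. It measured 98.3, 94.7 and 100.4 CPM in S, 115, 106 and 125 CPM in T, and 114, 105 and 85.8 CPM in A + T. The T hearts did lie above the S hearts, by a log2 fold change of 0.24 with a 95% interval of -0.00095 to 0.47 (edgeR adjusted P = 0.143). Without animal 22 of A + T, which enters this comparison only through the scaling and the estimate of spread, the adjusted P was 0.0365. A + T hearts overlapped with both other groups. With both airway libraries removed, the T vs. S value passed the threshold at 0.30 (adjusted P = 0.016).

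**Figure D1:**
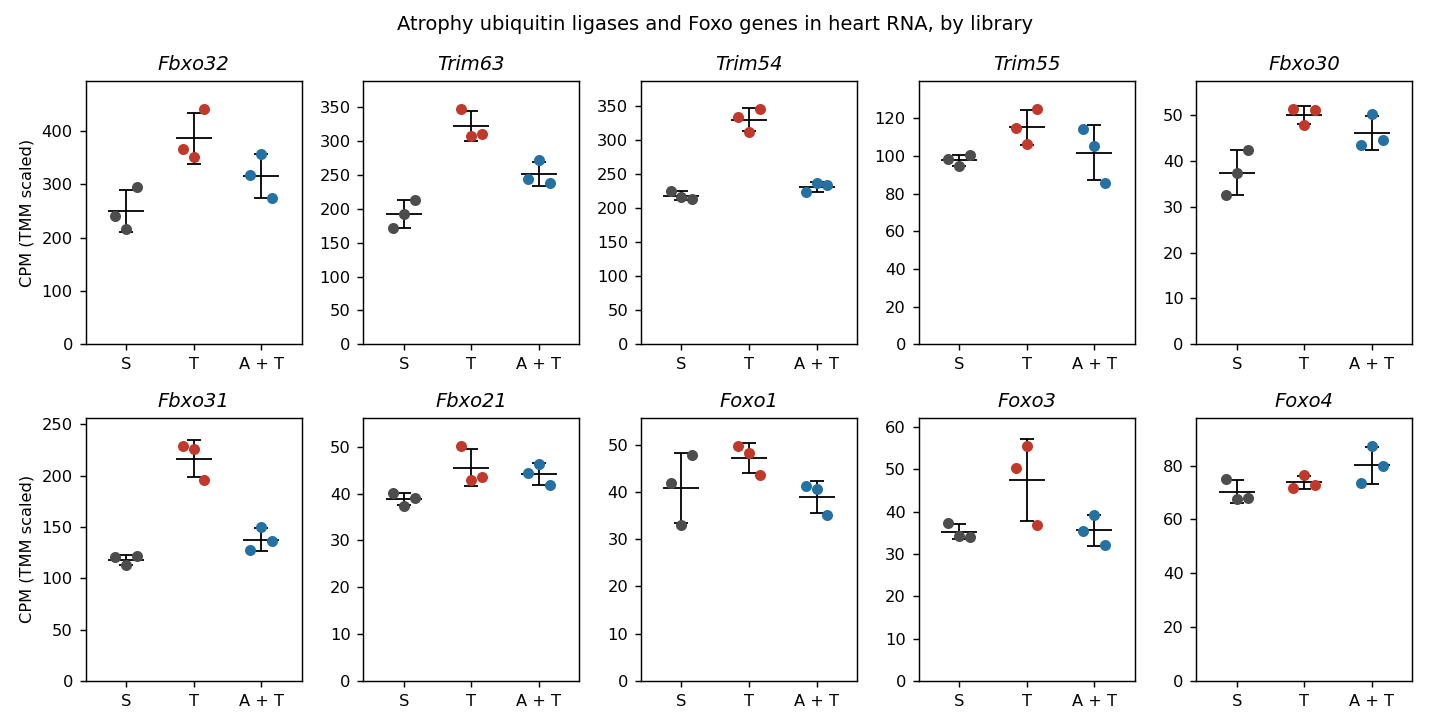
Each point is 1 heart, in CPM after TMM scaling on a linear axis from 0, for the groups S, T and A + T, with the group mean and SD as bars (n = 3). Trim63, Trim54 and Fbxo31 show T hearts clear of both other groups, whereas Foxo1 and Foxo4 overlap between S and T.

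Fbxo32 was also higher in T. It encodes atrogin-1, the substrate-binding F-box subunit of an SCF ligase that targets calcineurin in heart, and lies on the minus strand of chromosome 15 from 58175879 to 58214932. It measured 241, 216 and 294 CPM in S, 366, 352 and 441 CPM in T, and 318, 356 and 274 CPM in A + T. S and T did not overlap, and A + T overlapped with each of them. The log2 fold change in T vs. S was 0.63 (1.54-fold, SE 0.14, edgeR adjusted P = 0.0106), called whichever animal was left out, in 9 of 9 fits. The values for A + T were -0.29 vs. T (adjusted P = 0.25, 95% interval -0.60 to 0.02) and 0.34 vs. S (adjusted P = 0.158, 95% interval 0.03 to 0.64), neither past the threshold in edgeR.

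Of the 10 genes, Fbxo31 had the largest log2 fold change in T vs. S and in A + T vs. T. It encodes an F-box protein known for degrading cyclin D1 after DNA damage and counted in skeletal muscle among the Foxo-dependent ligases, and it lies on the minus strand of chromosome 8 from 121549440 to 121578806. It measured 121, 113 and 121 CPM in S, 229, 226 and 196 CPM in T, and 127, 150 and 136 CPM in A + T. No group overlapped another, and A + T lay just above S. It rose by 0.88 on the log2 scale in T vs. S (1.83-fold, SE 0.09, edgeR adjusted P = 0.000235) and fell by 0.65 in A + T vs. T (SE 0.09, edgeR adjusted P = 0.00554). Neither call depended on a single animal, since 9 of 9 fits kept each. Against S, A + T gave 0.22 (edgeR adjusted P = 0.153, 95% interval 0.02 to 0.42).

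Fbxo30, which encodes MUSA1, an F-box ligase of denervated muscle that BMP signalling restrains, rose by less. It lies on chromosome 10 from 11281330 to 11298052. It measured 32.6, 37.3 and 42.4 CPM in S, 51.3, 47.8 and 51.1 CPM in T, and 43.5, 50.3 and 44.6 CPM in A + T. S lay below both other groups, which overlapped. In T vs. S the log2 fold change was 0.42 (1.34-fold, SE 0.10, edgeR adjusted P = 0.0155). Removal of S animal 2, S animal 3 or T animal 11 ended the call, with adjusted P of 0.0518, 0.0512 and 0.0556. In A + T it was 0.30 above S (adjusted P = 0.0931) and -0.12 from T (adjusted P = 0.536), on the log2 scale from edgeR.

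Fbxo21, the gene of SMART, a further Foxo-dependent F-box ligase of wasting skeletal muscle, did not pass the test. It lies on chromosome 5 from 117976730 to 118010201. It measured 40.0, 37.4 and 39.0 CPM in S, 50.2, 43.0 and 43.5 CPM in T, and 44.4, 46.4 and 41.8 CPM in A + T. All T and all A + T hearts exceeded all S hearts by a small margin. The log2 fold changes vs. S were 0.23 in T (adjusted P = 0.0736) and 0.19 in A + T (edgeR adjusted P = 0.187). The T vs. S value passed without A + T animal 22 (adjusted P = 0.0431) and without both airway libraries (0.28, adjusted P = 0.0359).

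Among the Foxo factors, which share the forkhead DNA-binding domain, Foxo3 alone passed the test, and only in T vs. S. Foxo3 is the member that drives Fbxo32 and autophagy genes in muscle, and it lies on the minus strand of chromosome 10 from 42181841 to 42276755. It measured 37.3, 34.3 and 34.1 CPM in S, 50.4, 55.5 and 36.8 CPM in T, and 35.5, 39.3 and 32.0 CPM in A + T. Animals 11 and 12 of T stood above all other hearts, while animal 15 of T lay within the range of S. T exceeded S by 0.44 on the log2 scale (1.35-fold, SE 0.14, edgeR adjusted P = 0.0462). It held in 3 of 9 fits with an animal removed. It was lost without each of S animals 2, 3 and 5, T animals 11 and 12 and A + T animal 20 (adjusted P between 0.0581 and 0.155), and without both libraries with airway transcripts (adjusted P = 0.0838). The difference of A + T from T was -0.42 (adjusted P = 0.1), or -0.58 when T animal 15 was removed (edgeR adjusted P = 0.0217). Vs. S, A + T gave 0.01 with a 95% interval of -0.29 to 0.32.

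Foxo1, which acts with the glucocorticoid receptor on Trim63 and carries much of the control of metabolic genes by insulin, lies on chromosome 3 from 52268336 to 52353221. It measured 41.8, 33.1 and 47.7 CPM in S, 49.7, 48.3 and 43.6 CPM in T, and 41.2, 40.5 and 35.0 CPM in A + T. The S hearts spread widely and overlapped with both other groups, and T lay above A + T in every heart. The log2 fold changes were 0.21 in T vs. S (adjusted P = 0.26), -0.28 in A + T vs. T (adjusted P = 0.228, 95% interval -0.56 to 0.00272) and -0.07 in A + T vs. S (edgeR adjusted P = 0.78). The T vs. S value was 0.08 without S animal 3 and 0.34 without S animal 5, neither past the threshold.

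Foxo4, on the X chromosome from 101254528 to 101260873, is the smallest of these genes. It measured 75.2, 67.6 and 68.0 CPM in S, 71.8, 76.6 and 72.9 CPM in T, and 73.6, 87.3 and 79.7 CPM in A + T. The groups overlapped in every pairing. The log2 fold change was 0.07 in T vs. S, with a 95% interval of -0.11 to 0.25, and 0.19 in A + T vs. S (edgeR adjusted P = 0.18). Foxo6, the Foxo gene outside the set, had 11 to 40 counts per library, and its log2 fold change in T vs. S was -0.24 (edgeR adjusted P = 0.623).

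As a set, 6 of the 10 genes were higher in T vs. S at an adjusted P under 0.05 from edgeR (Fbxo32, Trim63, Trim54, Fbxo30, Fbxo31 and Foxo3) and 0 were lower. Over all 13364 genes tested, 10.3% were called higher and 11% lower. An unadjusted P under 0.05 was reached by 7 of the 10 and by 35.4% of all genes. The T and S libraries did not overlap in 7 of the 10, against 42.6% of all genes, and 4 passed an unadjusted P under 0.05 with a fold change of at least 1.5, against 14.2%. The median log2 fold change of the 10 was 0.43, beside 0.00 (-0.0038) for all genes tested, and all 10 values were above 0. The 10 genes were chosen with earlier results of these data known, so these counts are not an independent test of the set.

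Between A + T and T, 2 of the 10 genes were lower in A + T (Trim54 and Fbxo31), against 2.79% of all genes, and 0 were higher, against 3.09%. DESeq2 and the likelihood ratio test of edgeR also called Trim63 lower, and 4 of the 10 had an unadjusted P under 0.05 in edgeR, against 22.4% of all genes. The libraries of these groups did not overlap in 4 of the 10, against 25.4% of all genes, and 1 passed the limits with a fold change of at least 1.5, against 8.1%. The median log2 fold change was -0.28 (all genes 0.01).

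Between A + T and S, Trim63 was the 1 gene called higher in A + T, against 4.67% of all genes, and 0 were lower, against 3.64%. The libraries did not overlap in 4 of the 10, against 32.4%, and 0 passed the limits with a fold change of at least 1.5, against 8.91%. The median was 0.19, beside 0.00345 for all genes. At an unadjusted P under 0.05 there were 6 of the 10, against 26.1% of all genes. Each group enters a pair of these comparisons, the libraries labelled T with opposite sign, so the counts share samples.

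**Figure D2:**
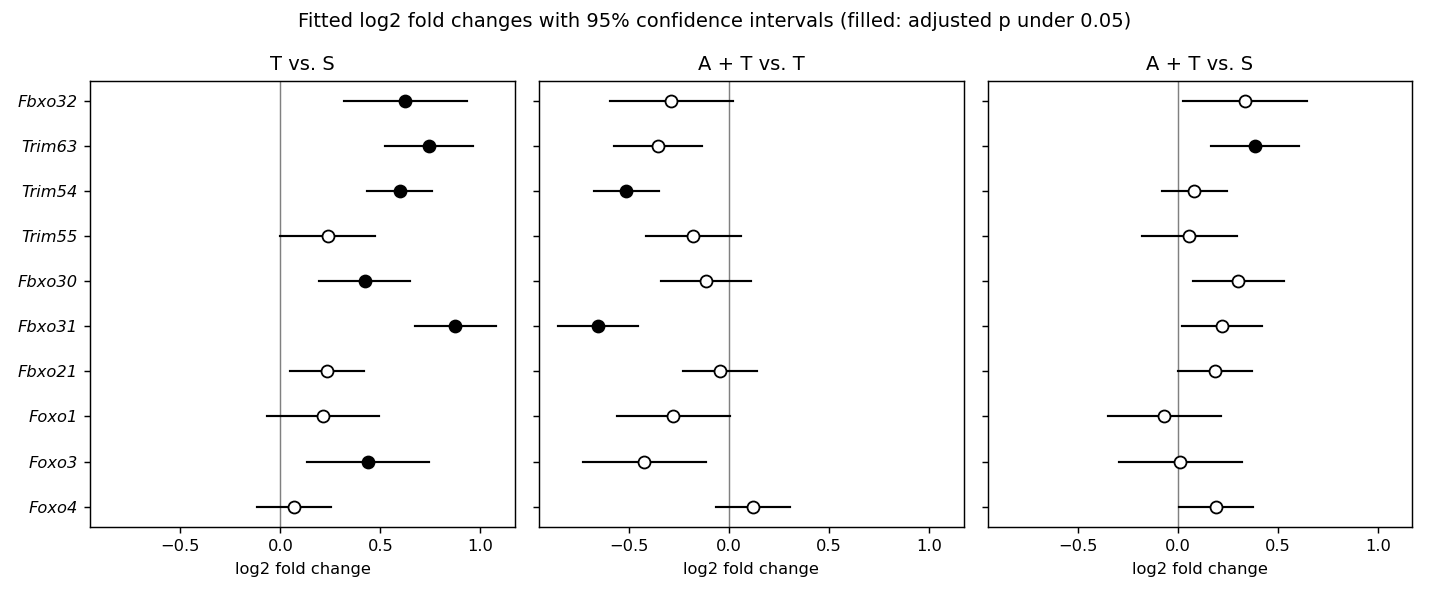
Fitted log2 fold changes of the 10 genes (x axis) with 95% confidence intervals in the 3 comparisons, from a fit to all 9 libraries. Filled points have an adjusted P under 0.05. All 10 points lie above 0 in T vs. S, and Trim54 and Fbxo31 are filled in A + T vs. T.

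Per gene length, Trim54 and Trim63 were the most abundant of the set. On the deposited log2 scale, which behaved as reads per kilobase on a common library total, Trim54 averaged 7.15 ± 0.0431 in S (SD, n = 3), Trim63 6.66 ± 0.158 and Trim55 5.77 ± 0.0415. Fbxo32 followed at 5.154 ± 0.224, Fbxo31 at 4.75 ± 0.0576 and Foxo4 at 4.47 ± 0.0849. Foxo3 (3.603), Fbxo21 (3.31), Foxo1 (2.86) and Fbxo30 (2.86) closed the order. Foxo1 and Fbxo30 overlapped, and each other neighbouring pair was separated in all S libraries. Foxo4 was therefore the most abundant Foxo transcript per length, and it was the Foxo gene with the smallest difference between T and S. The length behind the deposited value of Foxo3 was 2.90 kb, whereas its exons span 7.41 kb in GENCODE. With GENCODE lengths Foxo3 moved from position 7 to 9, Fbxo21 from 8 to 7, Fbxo30 from 10 to 8 and Foxo1 from 9 to 10, and the order of the 6 most abundant genes by their means was the same. Trim55 (5.19 to 5.274 in S) then overlapped with Fbxo32 (4.955 to 5.398), and Foxo3 with Foxo1.

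**Figure D3:**
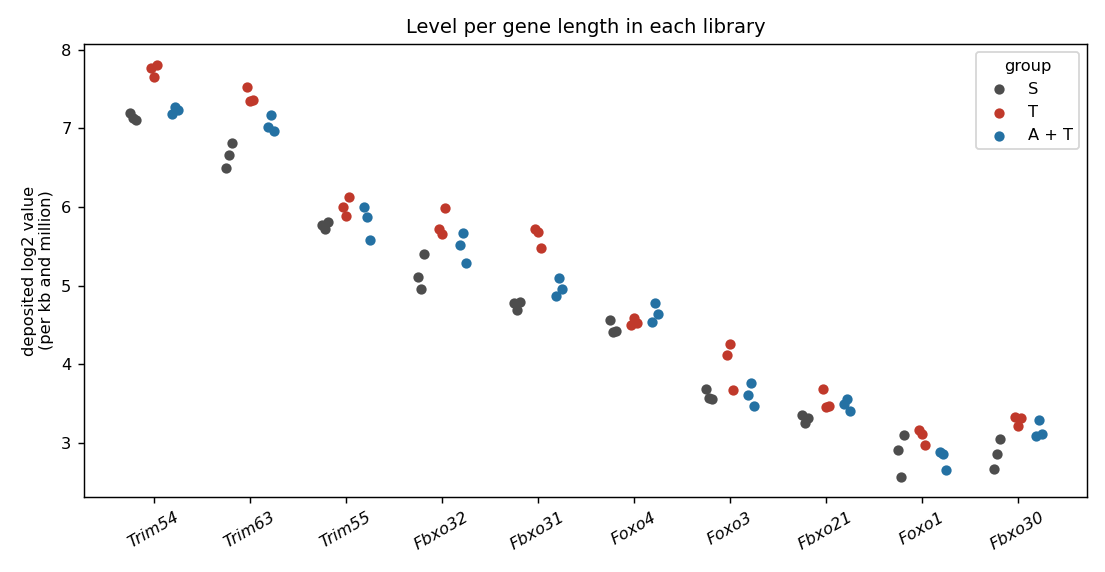
Deposited log2 value (y axis, per kilobase and library total) of each gene in each of the 9 libraries, ordered by the mean in S and coloured by group. Trim54 and Trim63 lie above 6.5 in every library, and Foxo1 and Fbxo30 lie side by side at the low end.

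Within the MuRF genes, Trim55 took its smallest share in T. Of their summed level per length, Trim55 made up 17.9% to 18.8% in S, 13.8% to 15.2% in T and 14.7% to 18.9% in A + T. Trim63 made up 34.1% ± 2.86, 37.9% ± 1.87 and 39.1% ± 1.11 in the same order (SD, n = 3). With GENCODE lengths Trim55 made up 12.6% to 13.2% in S, 9.6% to 10.6% in T and 10.3% to 13.4% in A + T. The log2 ratio of Trim63 to Trim55, taken on CPM within each library, averaged 0.97 over the S hearts, 1.48 over T and 1.31 over A + T, and T exceeded S by 0.51 without overlap. For Trim54 to Trim55 the means were 1.16, 1.52 and 1.19 in the same order. This ratio separated T from each of the other groups. Each of these separations gave P = 0.1 in a two-sided exact permutation test, the smallest that 3 hearts against 3 allow, and 0.257 after adjustment over the 18 tests of 6 ratios in 3 comparisons. The ratio of Fbxo32 to Trim63 overlapped between T and S, with a log2 difference of -0.12 (SD 0.221 in T and 0.174 in S, exact permutation test, P = 0.7).

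**Figure D4:**
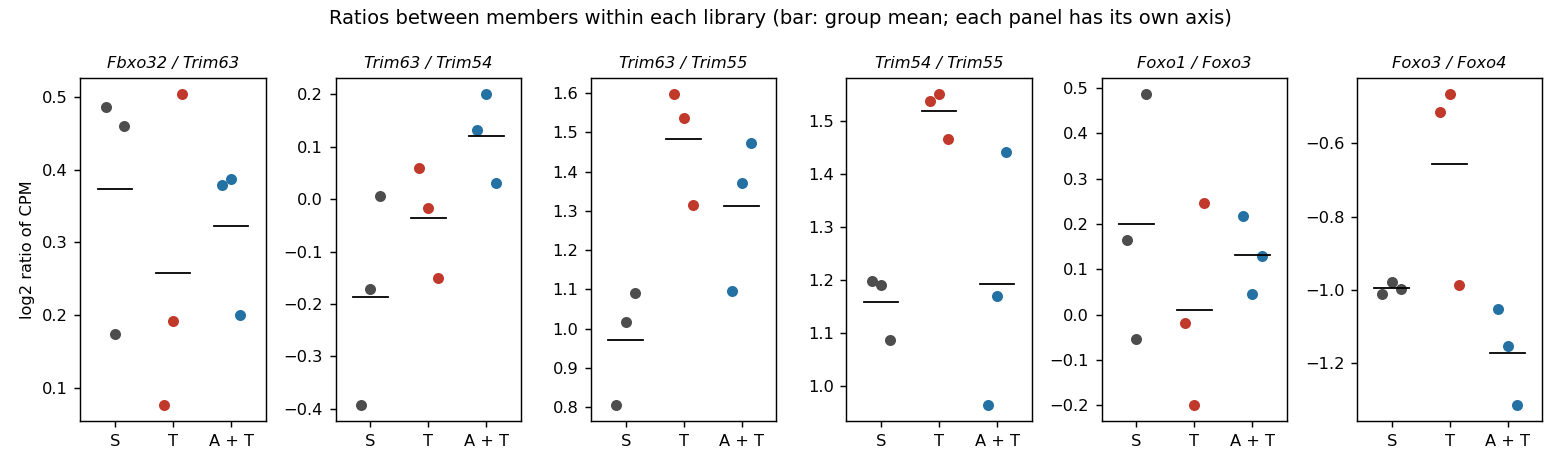
Log2 ratio of the CPM of 2 genes within each heart (y axis, with its own range in each panel) for 6 pairs in S, T and A + T. The ratios of Trim63 and of Trim54 to Trim55 are higher in all T hearts than in all S hearts, and the ratio of Fbxo32 to Trim63 overlaps among groups.

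For the Foxo genes, the share of Foxo4 in the summed level per length was 53.2% ± 1.64 for S, 48.5% ± 3.72 for T and 56.7% ± 2.51 for A + T (SD, n = 3). Foxo3 made up 29.2% ± 1.08, 33.9% ± 4.09 and 27.6% ± 1.34. These shares rest on the shorter Foxo3 length, and with GENCODE lengths Foxo4 made up 70.1%, 66.4% and 73.1% and Foxo3 15%, 18.1% and 13.9% in S, T and A + T. The log2 ratio of Foxo3 to Foxo4 averaged -0.996 over S, -0.66 over T and -1.17 over A + T. A + T lay below both S and T without overlap (exact permutation test, P = 0.1 each, 0.257 after adjustment), while T overlapped with S through animal 15.

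Many genes whose transcription Foxo factors are known to raise in muscle and other tissues were higher in T as well. Of the 27 listed, 18 rose in T vs. S and 0 fell at an adjusted P under 0.05 from edgeR, with a median log2 fold change of 0.58. Of the same 27, 3 were lower and 0 higher in A + T than in T (median -0.21). Against S, 9 were higher and 0 lower in A + T (median 0.37). The medians over all genes tested were -0.0038, 0.01 and 0.00345. Of all genes, 10.3% were called higher in T vs. S. In A + T, 2.79% were called lower vs. T and 4.67% higher vs. S. The list, like the members, was chosen with earlier results of these data known. The count in T vs. S was 14 to 18 with each animal left out, and 18 without animals 12 and 22. Against S, the count for A + T was 3 without S animal 2 and 2 without S animal 3. Against T, it was 1 without T animal 11, 7 without A + T animal 22 and 8 without both airway libraries. As a median over the 27 genes, the log2 distance from the S mean was 0.516 to 0.601 in the T hearts and 0.278 to 0.492 in A + T. It was -0.0495 to 0.0617 among the S hearts, and the 3 groups did not overlap. Each gene was centred on the S mean, so the S hearts lie around 0 by construction.

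Bnip3, a mitophagy receptor, measured 129 to 137 CPM in S, 298 to 350 in T and 176 to 219 in A + T. It rose by 1.25 on the log2 scale in T vs. S (adjusted P = 8.89e-05) and fell by 0.70 in A + T vs. T (edgeR adjusted P = 0.00608). Sqstm1, the autophagy adaptor p62, rose by 0.77 (adjusted P = 0.000322) and fell by 0.53 in A + T vs. T (adjusted P = 0.00867). Klf15, a factor of amino acid and lipid use that glucocorticoids also induce, was 1.02 higher in T (adjusted P = 0.0034) and fell by 0.76 in A + T vs. T (adjusted P = 0.0367). In A + T, Bnip3 was 0.54 above S (adjusted P = 0.0118), while the values of 0.24 for Sqstm1 and 0.26 for Klf15 missed the threshold in edgeR.

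Of the 27 Foxo targets, 24 were not called in A + T vs. T. Among them was Txnip, an inhibitor of thioredoxin and of glucose uptake. It measured 287 to 529 CPM in S, 1248 to 1534 in T and 1244 to 1529 in A + T. It was 1.67 higher in T (adjusted P = 0.00045) and 1.70 higher in A + T (edgeR adjusted P = 0.00215), with 0.03 between them on the log2 scale. Pdk4, which closes the pyruvate dehydrogenase complex and was named after its values were seen, gave 3.00 and 2.85 vs. S (adjusted P of 0.00263 and 0.0102 from edgeR), the widest differences of the list. The 9 genes called in A + T vs. S also included the cell cycle inhibitor Cdkn1b (0.48) and the autophagy gene Gabarapl1 (0.66), likewise named after the fact. Of the genes that did not pass in T vs. S, Sod2 was at -0.31 and Bcl6 at -0.52 on the log2 scale, also named after their values were seen.

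Of 21 tested genes in the list of proteins that control Foxo activity, which also counted Foxo6, 4 rose and 1 fell in T vs. S, and 1 rose and 3 fell in A + T vs. T, with 0 called in A + T vs. S by edgeR, where 3 had an unadjusted P under 0.05. Over the list the medians were 0.09, -0.13 and 0.00 (-0.00303). Of all genes tested, 10.3% were called higher and 11% lower in T vs. S. These shares were 3.09% and 2.79% in A + T vs. T, and 4.67% and 3.64% in A + T vs. S. In the last comparison 26.1% of all genes had an unadjusted P under 0.05 in edgeR. Igf1r, the IGF-1 receptor, measured 45.5 to 55.3 CPM in S, 82.7 to 125 in T and 59.5 to 75.2 in A + T. It rose by 0.99 in T vs. S (adjusted P = 0.00171) and fell by 0.60 in A + T vs. T (edgeR adjusted P = 0.0466). Pdpk1, the kinase that activates Akt, rose by 0.42 (adjusted P = 0.00407) and fell by 0.42 (adjusted P = 0.0153), and the deacetylase Sirt1, which acts on Foxo proteins, rose by 0.51 (adjusted P = 0.00263) and fell by 0.35 (adjusted P = 0.0406). Akt2, a kinase that phosphorylates Foxo proteins and was named after its values were seen, rose by 0.36 in T (edgeR adjusted P = 0.0115).

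The other muscle ubiquitin ligases moved in both directions. Of 24 tested, 2 rose and 5 fell in T vs. S, with a median log2 fold change of 0.01. Of all genes tested, 10.3% were called higher and 11% lower in this comparison. Cblb, which targets IRS-1, was 19.3 to 21.3 CPM in S, 32.1 to 36.1 in T and 25.6 to 34.8 in A + T, and rose by 0.79 (edgeR adjusted P = 0.00178). In A + T it was 0.66 above S (edgeR adjusted P = 0.012). Fbxl22, a cardiac F-box gene of the Z-disc, fell by 0.95 (adjusted P = 0.00457), and Asb2, a SOCS-box ligase of muscle, fell by 0.90 in T (adjusted P = 0.00775) and by 0.78 in A + T vs. S (adjusted P = 0.0323). In A + T vs. T 1 gene of the list was lower, against 2.79% of all genes, and 0 were higher, against 3.09%. Against S, 2 were higher in A + T, Cblb and Trim72 (0.46, named after its value was seen), and 1 was lower, Asb2. The shares of all genes were 4.67% higher and 3.64% lower.

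Of 16 genes for ubiquitin, its activating and conjugating enzymes and the SCF scaffold, which serve many ligases, 2 rose in T vs. S, the conjugating enzymes Ube2d3 (0.39, adjusted P = 0.0335) and Ube2b (0.25, edgeR adjusted P = 0.0388), and 0 fell, beside the 10.3% of all genes called higher. Between A + T and T 0 were called by edgeR, with 4 at an unadjusted P under 0.05, against 22.4% of all genes. Against S 2 were higher in A + T, beside 4.67% of all genes. Among them was Rps27a (0.54), which encodes ubiquitin fused to a ribosomal protein and was named after its value was seen. Of 7 deubiquitinases, Usp2 rose by 0.62 in T (adjusted P = 0.00485) and fell by 0.53 in A + T vs. T (adjusted P = 0.029), and Usp28 rose by 0.43 in T (adjusted P = 0.0339). Of all genes, 10.3% were called higher in T vs. S and 2.79% lower in A + T vs. T. For A + T against S 0 of the 7 were called by edgeR. An unadjusted P under 0.05 in edgeR was reached by 0 of the 7, against 26.1% of all genes.

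Of 13 genes that encode sarcomere and signalling proteins reported as substrates of these ligases, 2 rose and 1 fell in T vs. S, with a median of 0.08. Of all genes tested, 10.3% were called higher and 11% lower in this comparison. Myh7, the beta myosin heavy chain, was 1254 to 1535 CPM in S, 11600 to 12800 in T and 2251 to 2583 in A + T. Tnnt2, cardiac troponin T, rose by 0.34 (adjusted P = 0.0359) and Actc1, cardiac actin, fell by 0.90 (edgeR adjusted P = 0.0128). Myh7 was the 1 gene called in A + T vs. T and in A + T vs. S, where it differed by -2.33 and 0.82 on the log2 scale (adjusted P of 1.19e-05 and 0.00353). Of all genes, 2.79% were called lower in A + T vs. T and 4.67% higher in A + T vs. S.

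**Figure D5:**
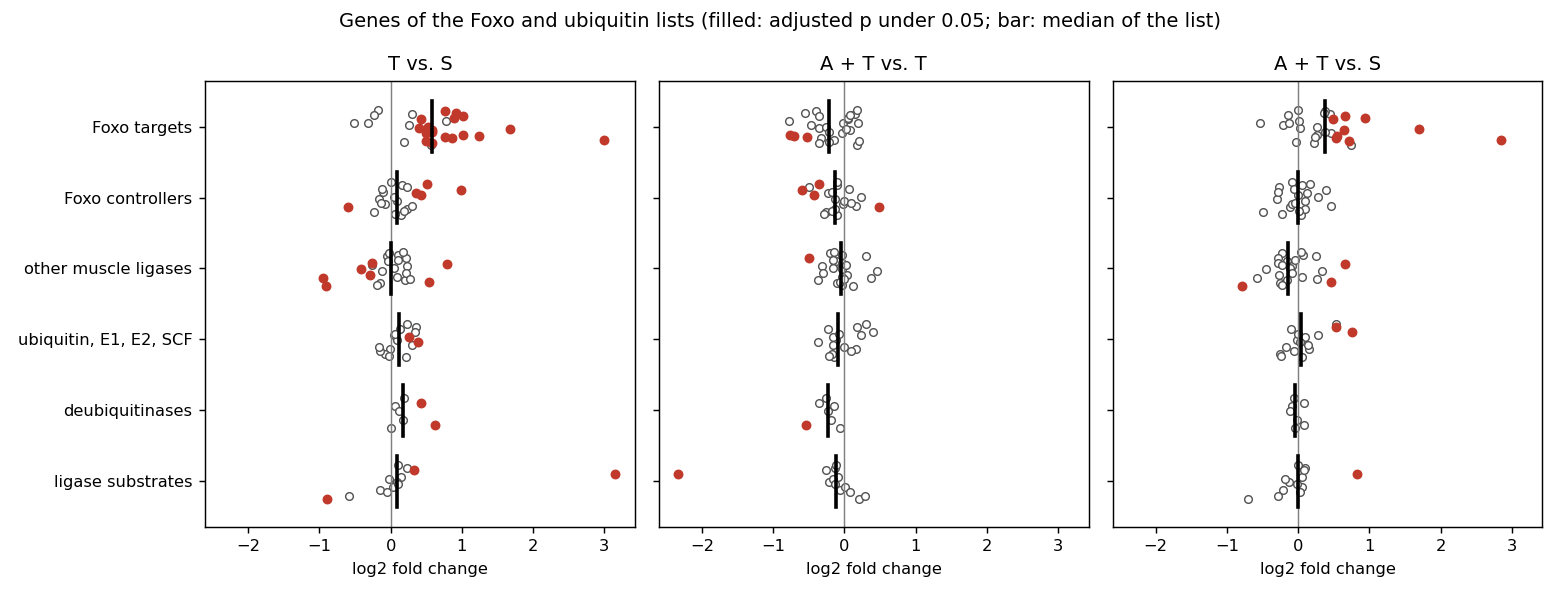
Log2 fold change (x axis) of every tested gene of the 6 lists in the 3 comparisons, with filled points at an adjusted P under 0.05 and a bar at the list's median. The 27 Foxo targets are shifted to the right in T vs. S, with a median of 0.58, whereas the 24 other muscle ligases have a median of 0.01.

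In whole heart, fewer cells of a type and less RNA per cell cannot be told apart, and markers of other cells moved with the groups. Fibroblast markers were lower in T vs. S in 5 of 5 genes and summed to 1250 to 1430 CPM in S, 768 to 899 in T and 957 to 1380 in A + T. Endothelial markers were lower in 3 of 5 and summed to 709 to 836, 443 to 554 and 558 to 662 CPM. In A + T vs. T, 3 of the 5 fibroblast and 1 of the 5 endothelial markers were higher. Macrophage markers were called in 0 of 5 in T vs. S and were higher in 4 of 5 in A + T vs. S and in 4 of 5 in A + T vs. T, with sums of 156 to 169 CPM in S, 158 to 173 in T and 195 to 271 in A + T. Among 8 cardiomyocyte markers, 2 were higher and 1 lower in T vs. S, with a median log2 fold change of -0.01, and 0 were called in A + T vs. T or A + T vs. S by edgeR, with 1 in each at an unadjusted P under 0.05. Of all genes tested, 10.3% were called higher and 11% lower in T vs. S. The shares called higher and lower were 3.09% and 2.79% in A + T vs. T, and 4.67% and 3.64% in A + T vs. S. An unadjusted P under 0.05 in edgeR was reached by 22.4% and 26.1% of all genes in these 2 comparisons. Atrial markers summed to 3000 to 3080 CPM in S, 861 to 4550 in T and 793 to 2050 in A + T. The part of these cells in the values of the ligase and Foxo genes was not tested.

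The genes whose course over the 9 hearts lay closest to that of a member were sought among 10247 genes with at least 5 CPM on average, by the root mean square difference of centred log2 CPM. Bcl9 (0.0885), Cpeb4 (0.115) and Tnrc6a (0.117) were closest to Fbxo32, whose own SD over the hearts was 0.322. Spcs3 (0.0752), Clip4 (0.0863) and Zmym5 (0.0871) were closest to Trim63, and Jph1 (0.0846), which encodes a junctophilin, Uri1 (0.0877) and Ofd1 (0.0941) to Foxo3. Tmem68 and Cul7 (0.0841 each) and Ccdc6 (0.093) lay nearest to Foxo1. The SD over the hearts was 0.34 for Trim63, 0.268 for Foxo3 and 0.202 for Foxo1. How close the nearest of so many genes would lie by chance was not tested. No member of the set was among the 3 closest genes of these 4.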

How the data were processed

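Heart mRNA libraries of 9 mice were analysed, 3 per group as given by the labels. The authors aligned 75-base paired reads to mm10 with STAR, counted uniquely mapped, strand-matched reads on RefSeq genes with featureCounts and deposited raw counts per gene. Versions are not given in the sources used here. They also deposited log2 normalized values, and the submitters' processing notes name edgeR. The log2 CPM computed here differed from these by an amount that was constant over libraries (median SD 0.00233 over 10021 genes) and close to log2 gene length, so they were read as values per length.

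A gene stayed in unless its CPM fell below 0.5 in over 4 libraries, which kept 13364 genes and removed 526. A quasi-likelihood model was fitted to all 9 libraries after TMM scaling (edgeR 4.0.16 in R 4.3.3) and gave the 3 comparisons, and P-values were Benjamini-Hochberg adjusted over all genes tested. Standard errors are the log2 fold change over the square root of F. Ratios were tested with scipy by exact permutation. A count of 3 corresponds to 0.152 to 0.281 CPM. The 95% intervals are confidence intervals for a difference between groups, computed from the standard errors. They take in the spread between hearts but do not give the range of single hearts. Replicates of a group differed by more than counting noise (chi-square per gene at least 7.7), and the labels number the animals. The scripts were checked on simulated data. Alternatives used limma-voom (limma 3.58.1), DESeq2 1.42.0 and the likelihood ratio test of edgeR, other scalings and filters, the deposited log2 values, and animals left out.

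The members and the lists were chosen with earlier results of these data known. Named genes are the 10 members, Foxo6, up to 3 genes per list with the smallest P-value among those called in T vs. S and the same in A + T vs. T, and the 3 genes closest to each of 4 members, with others named as chosen after their values were seen. The values of some single list genes are not reported here. Coordinates come from GENCODE M21 on GRCm38, which mm10 names, and promoter sequences from RefSeq on GRCm38.p6.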

Additional observations from a re-analysis of the deposited data

How the results depend on the processing

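The count of 6 members called in T vs. S lay between 4 and 7 under the other settings and between 4 and 8 with each animal left out. Trim63, Trim54, Fbxo31 and Fbxo32 were called in all 21 other fits of T vs. S, and Trim54 and Fbxo31 in all 21 of A + T vs. T. The single call in A + T vs. S, Trim63, became 0 when libraries were scaled by their totals alone, when only S and A + T were fitted, and with the limits changed to a fold change of 1.5 or more with an unadjusted P under 0.05, became 2 at an adjusted P under 0.1, and ranged from 0 to 1 with each animal left out. The count of 2 in A + T vs. T was 1 with those changed limits and 2 to 3 with each animal left out.

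The count of 18 Foxo targets in T vs. S, examined after the data had been seen, was 10 with the same changed limits and 14 to 18 with each animal left out. The 3 lower in A + T vs. T were 7 with DESeq2, 6 with the likelihood ratio test, 5 with RLE size factors, 1 with library totals alone, 8 without both libraries that held airway transcripts, 6 at an adjusted P under 0.1, and 1 to 7 with each animal left out. The 9 higher in A + T vs. S were 15 with DESeq2, 5 with library totals alone and 2 to 10 with each animal left out.

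Small values changed sign. In A + T vs. T, Fbxo21 was at 0.000998 with upper-quartile scaling and between -0.0866 and 0.0315 with each animal left out. In A + T vs. S, the same range was -0.0346 to 0.173 for Trim55, -0.201 to 0.0562 for Foxo1 and -0.0534 to 0.0887 for Foxo3, and Foxo1 was at 0.0111 without both airway libraries. The cause of these changes was not tested. With GENCODE lengths, the shares of which were computed after the data had been seen, the 6 most abundant genes kept their order by mean, with Trim55 and Fbxo32 overlapping. No paired analysis was possible because the animals of the groups share no numbers. With 3 hearts per group, the 95% intervals of the Foxo genes limit which differences could be called.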
